A study of Mus musculus with 12 samples.

Results

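Collagen genes were taken as every gene whose symbol consists of Col, a chain-type number, the letter a and a chain number with nothing after it. The pattern matched 44 of the 55416 gene identifiers counted, and all 44 had reads in each of the 12 libraries. Bulk RNA-seq was measured in whole trigeminal ganglia, where facial sensory neurons have their cell bodies, among glia, vessels and connective tissue, so the cell that made a transcript was not recorded. All animals were adult C57Bl6 mice, taken 1 month after injection, and the series asks which genes depend on Prdm12, a transcriptional regulator of nociceptors, in the adult. The 6 inducible knockout (iKO) animals carried Rosa26Cre ERT2 and 2 floxed Prdm12 alleles (Fl/Fl) and received tamoxifen, which lets the Cre ERT2 recombinase act. iKO 1 to 3 were female and iKO 4 to 6 male. Among the 6 controls, control 1 (female) was Rosa26Cre ERT2; Fl/+, controls 2 (female) and 3 (male) were +/+; Fl/+, and control 4 (male) was Rosa26Cre ERT2; +/+, and these 4 received tamoxifen. Controls 5 and 6, both male, shared the genotype of the iKO animals but were given corn oil. The Rosa26 locus is active in most cell types, so the deletion was not limited to neurons by its driver, and control 1 carried both Cre and 1 floxed allele under tamoxifen. The replicate number tied no animals together in the labels, and p-values measure the spread between these samples.

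Collagens are secreted or membrane-bound proteins built from 3 chains wound into a triple helix, and most types need chains from more than 1 gene. Fibril-forming collagens give tissue its tensile strength, type IV collagen forms the sheet of basement membranes around vessels and around each glia-covered axon or neuron, and type VI collagen forms beaded filaments between both. In peripheral nerves and ganglia, fibroblasts of the surrounding sheaths, perineurial cells, Schwann cells and vessel cells are known sources of them.

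Total counts ran from 13207526 to 24178970 per library. A count of 3 reads, taken as the limit that no read allows, corresponded to 0.124 to 0.227 CPM (reads scaled to the size of the library), and covers counting error only. Collagen genes together held 0.135% to 0.236% of the reads, with the highest shares in iKO 5 (0.236%) and control 6 (0.219%). Prdm12 ran from 56.9 to 133 CPM in controls and from 13.2 to 19.2 CPM in iKO, with no overlap (log2 fold change -2.64, edgeR adjusted p = 2.7e-05). The 12 ganglion neuron markers were all read, and their summed level ran from 15349 to 19073.5 CPM in controls and from 15811 to 19339 CPM in iKO. All 12 fibroblast markers were read as well, with sums of 2799.7 to 4334 CPM in controls and 2587 to 3688 CPM in iKO. The summed levels of both lists overlapped between the groups.

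Type I collagen had the highest control mean per kilobase of exon among the collagens. In controls Col1a1 measured 25.8 ± 15.3 and Col1a2 25.5 ± 9.73 CPM per kilobase of exon (mean ± SD, n = 6), the 2 chains of type I collagen of skin, bone, tendon and nerve sheath. Next came Col5a3 at 18.5 ± 1.95, a chain of type V collagen that sets fibril width, and Col28a1 at 16.7 ± 1.46 CPM per kilobase, a collagen known from mouse peripheral nerve, where it lies around Schwann cells. The type IV chains Col4a1 (14.3 ± 1.48) and Col4a2 (12.7 ± 0.955) and the fibril-associated Col16a1 (11.0 ± 1.11) and type III chain Col3a1 (10.5 ± 1.66 CPM per kilobase) followed. At the other end, Col6a6 (0.0461 ± 0.0274), Col17a1 (0.0585 ± 0.0274), Col6a4 (0.0687 ± 0.0300) and Col9a1 (0.133 ± 0.113 CPM per kilobase) were lowest. The libraries of each of Col1a1 and Col1a2 overlapped those of the other, so their order was within the spread. Control 6 (371 CPM) raised the mean of Col1a1, whose libraries also overlapped those of Col5a3. In controls 4 and 5 Col1a1 was at 105 and 109 CPM and Col5a3 at 126 and 146 CPM, with 6563 and 6809 bases of exon.

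**Figure D1:**
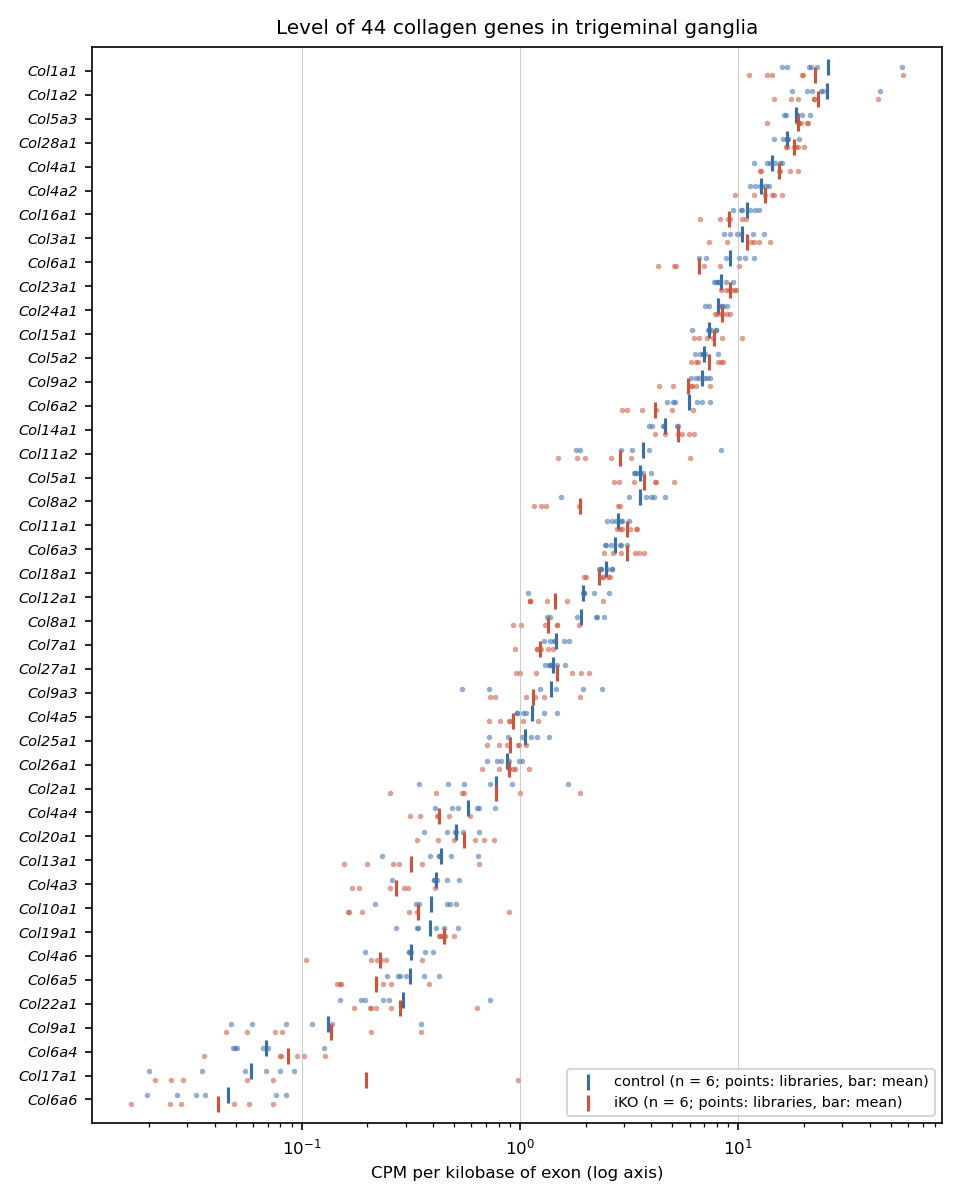
Level of each of the 44 collagen genes in CPM per kilobase of exon (log axis), with 1 point per library, controls in blue and iKO in red, and a bar at each group's mean (n = 6 each). Genes are ordered by the control mean, from Col1a1 at 25.8 to Col6a6 at 0.0461 CPM per kilobase, and the points of both groups overlap for every gene.

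Whether the loss of Prdm12 moved collagen transcripts was asked of all 12 libraries. No collagen gene passed the threshold: 0 of the 41 tested had an adjusted p under 0.05 in edgeR's quasi-likelihood test with sex as a covariate, where 0.379% of the 16637 genes tested did. Col6a6, Col9a1 and Col17a1 had too few reads to be tested. At an unadjusted p under 0.05 there were 9 of 41, 22.0% against 10.9% of all genes tested. Of these, 8 were lower in iKO (19.5% of the 41, against 6% of all genes) and 1 was higher (2.44% against 4.9%). DESeq2 called 1 collagen gene, where it called 2% of all genes: Col8a1 (log2 fold change -0.57, DESeq2 adjusted p = 0.0327). The signs were even, with 20 log2 fold changes above 0 and 21 below. For no collagen gene did the groups separate, while among all genes the groups did not overlap for 0.679%, with iKO higher, and for 0.523%, with iKO lower. The count of 8 lower genes ran from 5 to 13 with 1 library left out, and was 13 without iKO 5 (31.7% of the collagen genes tested against 5.7% of all genes). It was 5 without iKO 4 (11.9% against 6.16%), 5 without iKO 6 (12.2% against 4.51%), and 4 in the tamoxifen-injected animals alone (9.76% against 4.69%). Without control 6 and iKO 5 together it was 14 (34.1% against 5.74% of all genes).

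The 8 were Col8a1, Col8a2, Col4a3, Col4a4, Col6a1, Col6a2, Col16a1 and Col7a1, which belong to 5 collagen types, IV, VI, VII, VIII and XVI. None is a fibril-forming chain. In bulk tissue, fewer cells of a type and less RNA per cell cannot be told apart.

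**Figure D2:**
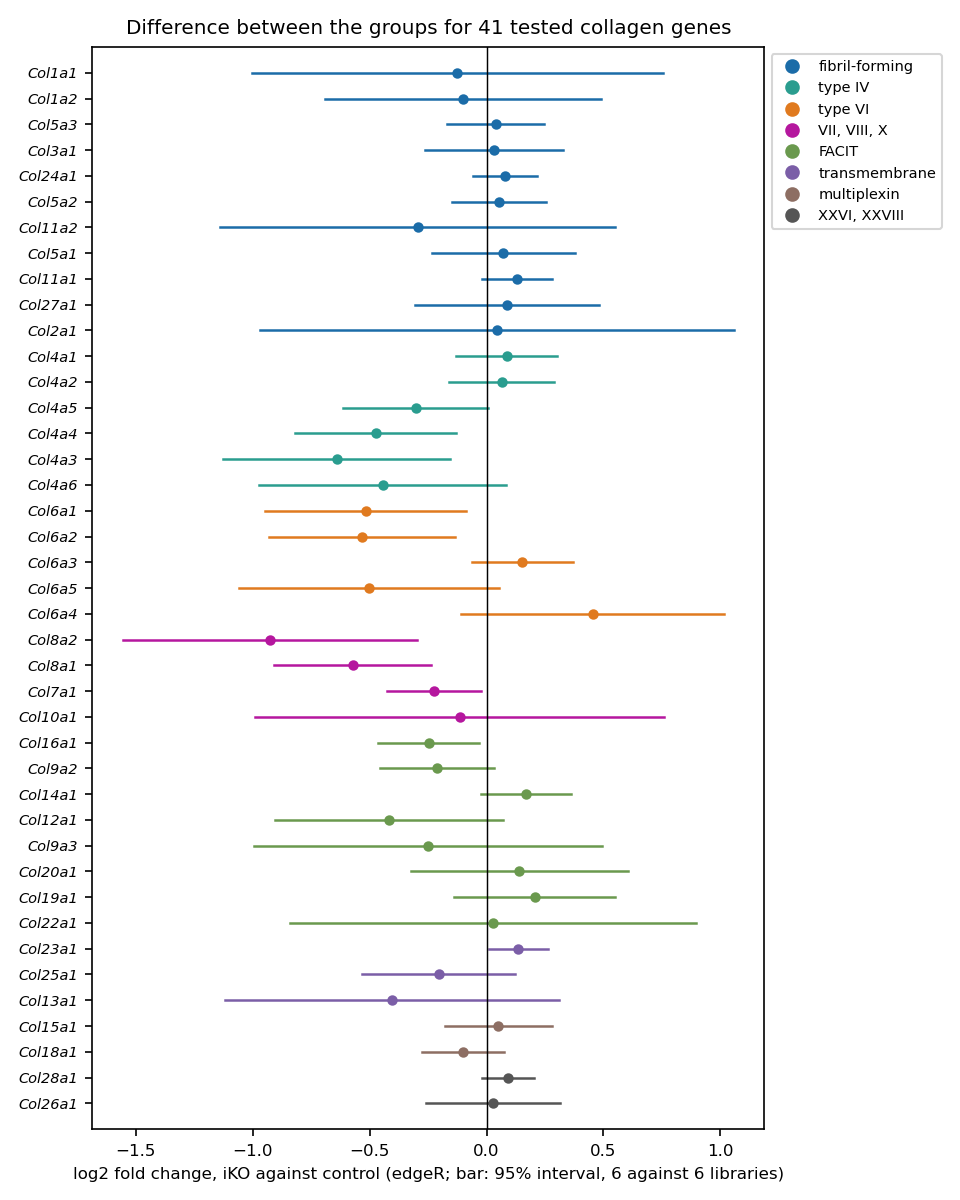
Log2 fold change of 41 collagen genes, iKO against control over all 12 libraries, from edgeR, with 95% intervals and colours by collagen class. The intervals of 8 genes lie below 0, in the type IV, type VI, VII and VIII and FACIT classes, and that of Col23a1 lies above 0, while the points of the fibril-forming genes run from -0.29 to 0.13.

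The replicates fall into sets with different controls. In replicates 1 to 4 all 8 animals received tamoxifen and the genotype differed, and in replicates 5 and 6 all 4 males had 1 genotype and the injection differed. In replicates 1 to 4, 0 of 41 collagen genes passed (0.114% of all genes), and 6 had an unadjusted p under 0.05 (14.6% against 7.93%). These were Col4a3, Col4a4, Col8a1, Col8a2 and Col12a1, which were lower (4.32% of all genes were), and Col23a1, which was higher (3.62% of all genes were). In replicates 5 and 6, 0 of 41 passed (0.00601% of all genes), and Col6a1 and Col6a2 had an unadjusted p under 0.05, both lower (4.88% of the 41 against 4.07% of all genes). DESeq2 gave 8 and 3 collagen genes that were lower at an unadjusted p under 0.05 in these comparisons (3.62% and 3.7% of all genes), and called none. The test of the difference between the sets called 0 of 41 collagen genes, with none at an unadjusted p under 0.05, as it called 0 of all genes, of which 3.41% had an unadjusted p under 0.05.

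Among the 11 fibril-forming chains none had an unadjusted p under 0.05, and the median log2 fold change was 0.04, against 0.001 for all genes tested. Col1a1 ran from 105 to 371 CPM in controls with a median of 139.8, and from 73.9 to 375 CPM in iKO with a median of 111. Col1a2 ran from 218 to 556 CPM in controls, with a median of 284, and from 182 to 544 CPM in iKO, with a median of 255. Both genes stood far above the rest in 1 library of each group, control 6 and iKO 5, and the other 10 libraries kept to 73.9 to 151 CPM for Col1a1 and to 182 to 303 CPM for Col1a2. The log2 fold changes were -0.13 (95% interval -1.003 to 0.752) for Col1a1 and -0.10 (-0.69 to 0.49) for Col1a2. Without control 6 and iKO 5 together they were -0.42 and -0.25 (edgeR adjusted p = 0.268 and 0.408).

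Col3a1, the chain of type III collagen of elastic and soft tissues, did not share these peaks in both libraries. It ran from 84.7 to 128 CPM in controls (median 98.9) and from 72.0 to 137 CPM in iKO (median 114). iKO 5 was the highest of the 12 libraries, while control 6 was the lowest control. The type V chains, which seed and limit type I fibrils, were steadier than the type I chains. The highest library was 5.07 times the lowest for Col1a1, 3.06 times for Col1a2 and 1.91 times for Col3a1. For Col5a2 and Col5a3 it was 1.41 and 1.58 times, and for Col5a1 1.89 times, close to Col3a1. Col5a1 ran from 28.4 to 33.8 CPM in controls (median 29.6) and from 22.9 to 43.2 CPM in iKO (median 31.7). Col5a2 ran from 60.6 to 77.7 CPM in controls (median 66.2) and from 58.3 to 82.0 CPM in iKO (median 69.9). Col5a3 ran from 109.9 to 146 CPM in controls (median 126) and from 92.1 to 142 CPM in iKO (median 131). The groups overlapped for all 4 of these genes, and their log2 fold changes lay between 0.03 and 0.07, with signs that turned when control 6 and iKO 5 were both left out (-0.15 for Col3a1, -0.09 for Col5a1, -0.03 for Col5a2 and -0.02 for Col5a3).

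**Figure D3:**
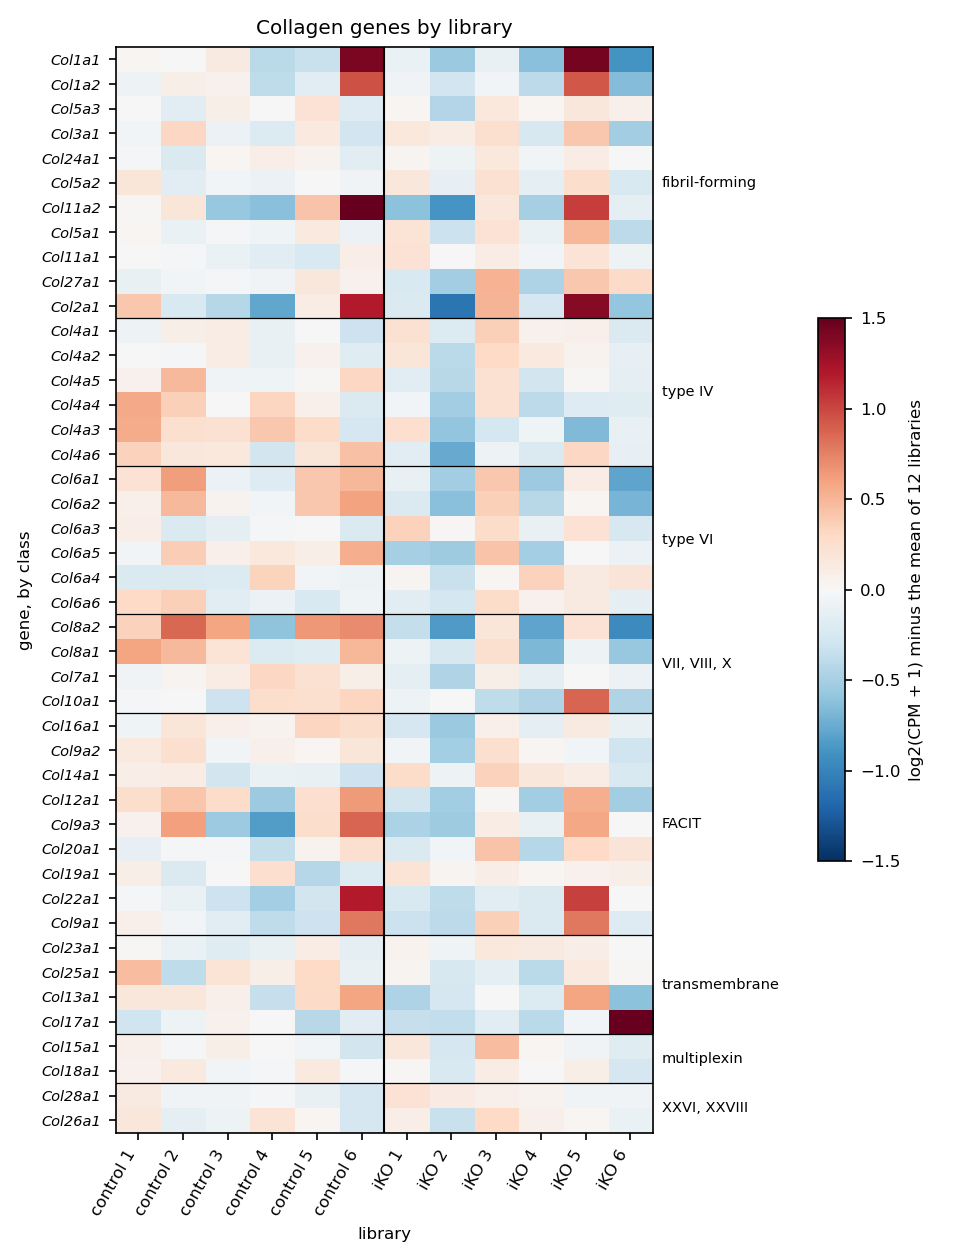
Each collagen gene in each of the 12 libraries as log2(CPM + 1) minus its mean over the 12 libraries, with genes grouped by class and libraries by group. Control 6 and iKO 5 are red for Col1a1, Col1a2, Col2a1, Col11a2, Col22a1 and Col9a1, iKO 6 is red for Col17a1, and Col8a1, Col8a2, Col6a1 and Col6a2 are red in most controls and blue in most iKO libraries.

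Several other collagens were highest in the same pair of libraries, and these were singled out after their values were seen. Col2a1, the chain of type II collagen of cartilage, measured 15.3 CPM in control 6 and 17.4 CPM in iKO 5, against 2.35 to 9.21 CPM in the other 10 libraries. Col11a2, a chain of the cartilage collagen XI, measured 57.1 and 41.3 CPM, against 10.2 to 26.8 CPM. Col22a1, found in humans and mice at muscle-tendon junctions, measured 6.69 and 5.87 CPM, against 1.38 to 2.37 CPM. Col9a1, a cartilage chain, measured 1.79 and 1.78 CPM, against 0.228 to 1.06 CPM. Col10a1, a collagen of growth cartilage, measured 2.79 CPM in iKO 5 and 1.60 CPM in control 6. It was at 0.513 to 1.50 CPM elsewhere, and its locus overlaps Nt5dc1, so without strand its value is uncertain. Col12a1 (39.2 CPM in control 6 and 36.5 in iKO 5, at most 33.3 elsewhere) and Col13a1 (2.97 and 2.99 CPM, at most 2.23 elsewhere) were also highest there. Of the other type IX and XI chains, Col9a2 was highest in control 2 (23.1 CPM) and Col11a1 in iKO 1 (43.7 CPM). Col9a3 was highest in control 6 (9.15 CPM), with control 2 (7.49 CPM) above iKO 5 (7.28 CPM). The 13 cartilage and bone markers, all of them read in at least 1 library and 10 of them tested, summed to 153 CPM in control 6 and 153 CPM in iKO 5, against 86.2 to 102 CPM in the other libraries. The 12 skeletal muscle markers, all read, summed to 1219.7 CPM in iKO 5 and 301 CPM in control 6. They summed to 365 CPM in iKO 6 and to 77.0 to 201 CPM in the other 9 libraries. The part of these markers in the collagen values was not tested.

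**Figure D4:**
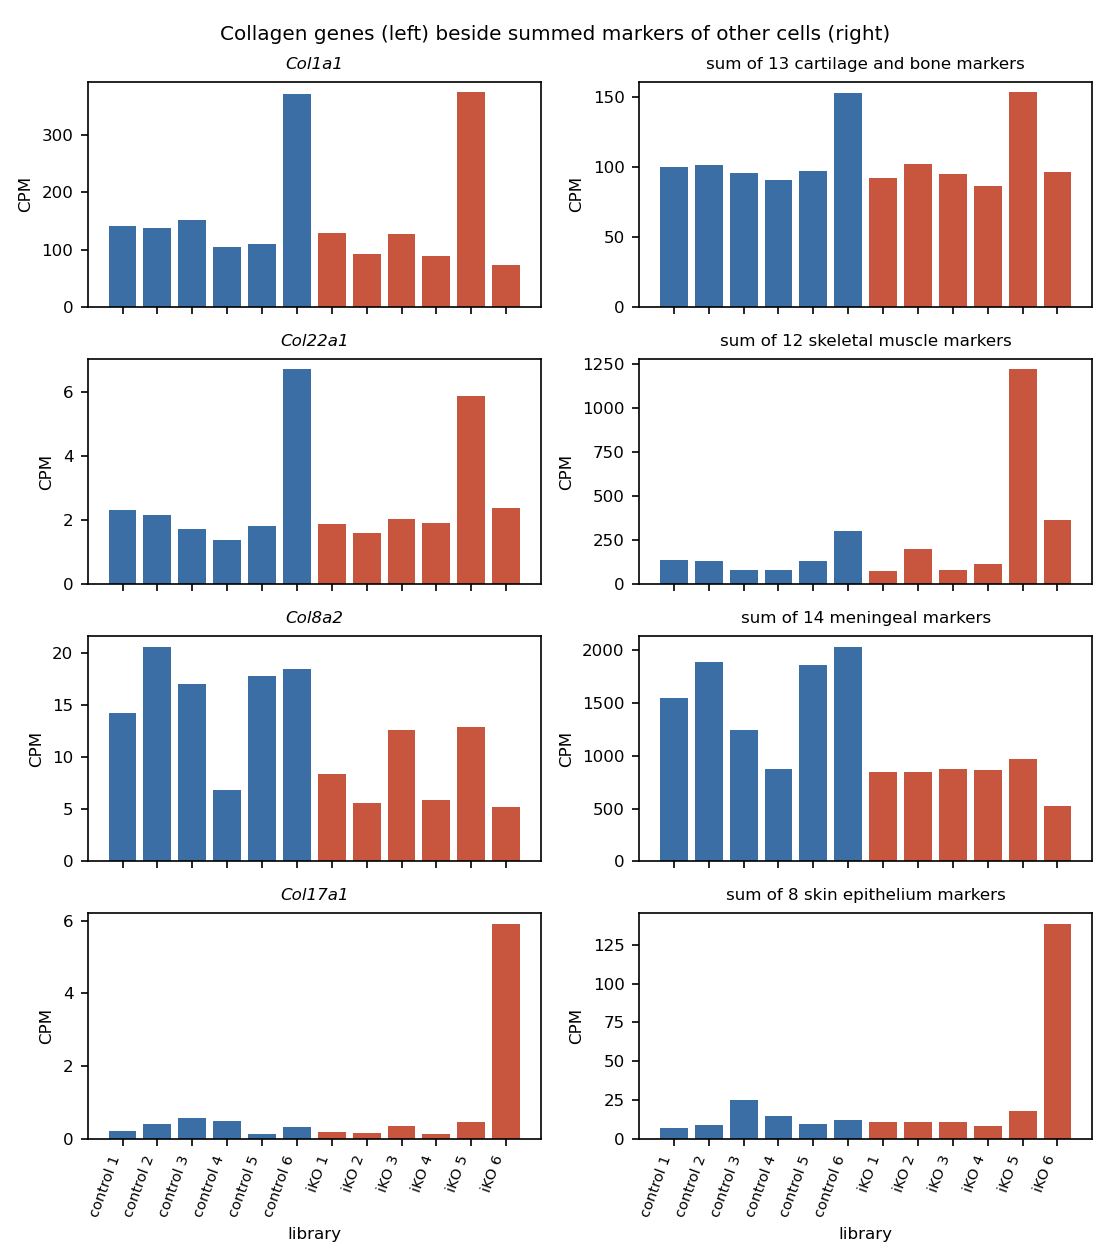
Level of Col1a1, Col22a1, Col8a2 and Col17a1 (left, CPM) beside the summed level of marker genes of cartilage and bone, skeletal muscle, meninges and skin epithelium (right, CPM) in each of the 12 libraries, controls in blue and iKO in red. Control 6 and iKO 5 are highest for Col1a1, Col22a1 and the cartilage and bone markers, iKO 6 is highest for Col17a1 and the skin markers, and Col8a2 and the meningeal markers are higher in most controls.

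Of the remaining fibril-forming chains, Col11a1 ran from 31.9 to 43.7 CPM, Col24a1, a fibrillar collagen of developing bone, from 53.7 to 69.9 CPM, and Col27a1 from 12.5 to 26.9 CPM over the 12 libraries. Their log2 fold changes were 0.13, 0.08 and 0.09 (edgeR adjusted p = 0.533, 0.702 and 0.902). The groups overlapped for all 3.

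Type IV collagen is assembled from 6 chains, encoded by gene pairs that lie head to head. Col4a1 and Col4a2 make the network found in nearly every basement membrane, while Col4a3, Col4a4, Col4a5 and Col4a6 make networks restricted to fewer tissues. The windows around the starts of Col4a1 and Col4a2 are shown because the 2 genes run in opposite directions from 1 shared stretch. Each covers 250 bases before and 50 bases from the start of transcription, from RefSeq on GRCm38.p6, and they share 78 bases. Capitals mark the GC box GGGCGG, the CCAAT box CCAAT and the TATA box TATAAA, searched on both strands. Col4a1 is at chr8:11312777-11313076 on the minus strand and Col4a2 at chr8:11312555-11312854 on the plus strand.
Col4a1: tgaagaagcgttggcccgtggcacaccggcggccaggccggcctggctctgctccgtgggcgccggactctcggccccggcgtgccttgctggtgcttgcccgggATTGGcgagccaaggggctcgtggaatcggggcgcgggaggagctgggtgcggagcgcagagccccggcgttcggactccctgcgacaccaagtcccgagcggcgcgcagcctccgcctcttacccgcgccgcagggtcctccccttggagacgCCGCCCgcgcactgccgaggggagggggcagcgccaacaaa
Col4a2: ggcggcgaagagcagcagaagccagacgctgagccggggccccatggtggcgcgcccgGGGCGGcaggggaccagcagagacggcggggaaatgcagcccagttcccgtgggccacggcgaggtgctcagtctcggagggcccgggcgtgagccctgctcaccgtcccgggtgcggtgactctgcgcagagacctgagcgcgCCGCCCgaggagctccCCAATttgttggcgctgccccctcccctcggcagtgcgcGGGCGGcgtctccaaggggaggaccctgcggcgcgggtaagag
The Col4a1 window holds 1 GC box and 1 CCAAT box, and the Col4a2 window 3 GC boxes and 1 CCAAT box, with no TATA box in either. Of the 32851 RefSeq windows, 35.7% held a GC box, 37.4% a CCAAT box and 13.6% a TATA box. Of the 44 collagen genes 35 had a window. Of these genes 22 (62.9%) held a GC box, 13 (37.1%) a CCAAT box and 5 (14.3%) a TATA box in any of their windows. A gene could have more than 1 window, so these shares of genes cannot be set against the shares of windows. A match is a run of letters and not a known binding site.

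Col4a1 and Col4a2 were close to level between the groups, and the other 4 chains lay lower in iKO without passing the threshold. Col4a1 ran from 88.5 to 118 CPM in controls (median 107) and from 94.2 to 141 CPM in iKO (median 115), a log2 fold change of 0.09 (95% interval -0.13 to 0.30). Col4a2 ran from 74.8 to 92.0 CPM in controls (median 84.2) and from 64.2 to 105 CPM in iKO (median 91.2), a log2 fold change of 0.06 (-0.16 to 0.29). The groups overlapped for both, and because the genes overlap and the reads carry no strand, reads near their shared start cannot be assigned.

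Col4a3 ran from 2.59 to 5.26 CPM in controls (median 4.09) and from 1.70 to 4.06 CPM in iKO (median 2.73). All 6 iKO values lay below the control median and 3 below the lowest control, yet control 6 (2.59 CPM) lay below 3 of the iKO libraries. The log2 fold change was -0.64 ± 0.224 (SE; edgeR adjusted p = 0.300). Its partner Col4a4 ran from 4.34 to 8.20 CPM in controls (median 6.16) and from 3.34 to 6.30 CPM in iKO (median 4.44). Of the 6 iKO values 5 lay below the control median, and iKO 3 was above it. The log2 fold change was -0.47 ± 0.159 (SE; edgeR adjusted p = 0.273), with -0.64 in replicates 1 to 4 and -0.15 in replicates 5 and 6, and the difference between the sets was not called. The X-linked chains Col4a5 and Col4a6 had log2 fold changes of -0.30 and -0.44 (edgeR adjusted p = 0.476 and 0.551).

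Type VI collagen is built mainly from Col6a1, Col6a2 and Col6a3, and the other chains can take the place of the Col6a3 chain. Col6a1 and Col6a2 lie on chromosome 10 and Col6a3 on chromosome 1. The start windows of the 3 genes are shown because the levels of the first pair followed each other closely over the libraries and that of the third did not. All 3 are on the minus strand of GRCm38.p6, Col6a1 at chr10:76725995-76726294, Col6a2 at chr10:76623581-76623880 and Col6a3 at chr1:90843922-90844221, with the same motifs in capitals.
Col6a1: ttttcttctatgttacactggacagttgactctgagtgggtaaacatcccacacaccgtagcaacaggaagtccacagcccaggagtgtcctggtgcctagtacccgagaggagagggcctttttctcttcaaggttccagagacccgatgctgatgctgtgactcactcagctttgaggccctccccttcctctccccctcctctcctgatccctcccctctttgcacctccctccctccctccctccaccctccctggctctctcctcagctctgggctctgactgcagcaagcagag
Col6a2: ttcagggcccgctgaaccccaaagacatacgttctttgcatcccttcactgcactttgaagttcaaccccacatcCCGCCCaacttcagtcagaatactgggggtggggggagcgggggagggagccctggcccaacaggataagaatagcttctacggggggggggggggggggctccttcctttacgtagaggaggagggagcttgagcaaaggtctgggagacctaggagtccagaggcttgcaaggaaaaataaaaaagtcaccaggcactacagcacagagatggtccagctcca
Col6a3: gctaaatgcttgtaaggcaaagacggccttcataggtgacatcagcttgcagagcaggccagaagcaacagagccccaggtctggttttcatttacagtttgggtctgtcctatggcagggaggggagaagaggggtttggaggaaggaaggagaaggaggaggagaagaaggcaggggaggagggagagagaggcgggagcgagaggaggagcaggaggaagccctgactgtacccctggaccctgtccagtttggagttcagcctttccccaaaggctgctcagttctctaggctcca
One GC box in the Col6a2 window was the only match in the 3 windows to any of the 3 motifs.

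Col6a1 and Col6a2 were lower in most iKO libraries, and Col6a3 was not. Col6a1 ran from 28.9 to 51.6 CPM in controls (median 41.3) and from 18.7 to 44.3 CPM in iKO (median 26.6). Col6a2 ran from 39.4 to 61.9 CPM in controls (median 48.3) and from 24.5 to 51.9 CPM in iKO (median 32.4). For both genes 5 of 6 iKO libraries lay below the control median, iKO 3 reached the control levels, and iKO 6 was the lowest of the 12. The log2 fold changes were -0.52 ± 0.199 for Col6a1 (SE; edgeR adjusted p = 0.352) and -0.53 ± 0.183 for Col6a2 (SE; edgeR adjusted p = 0.292). In replicates 1 to 4 they were -0.45 and -0.41, and in replicates 5 and 6 they were -0.73 and -0.81. Col6a3 ran from 29.5 to 37.0 CPM in controls (median 32.7) and from 29.0 to 44.4 CPM in iKO (median 37.7), a log2 difference of 0.15 (95% interval -0.06 to 0.37, edgeR adjusted p = 0.618). The groups overlapped for all 3 genes. Of the minor chains, Col6a5 was at -0.50 on the log2 scale (edgeR adjusted p = 0.518) and Col6a4 at 0.45 (adjusted p = 0.569). Col6a4 and the untested Col6a6 were at 0.152 to 1.09 CPM over the 12 libraries, and their lowest values lay near the limit that no read allows.

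Type VIII collagen, a short-chain network collagen of the cornea's Descemet membrane and of vessel walls, gave the smallest p-values among the collagens. Col8a1 ran from 10.4 to 19.0 CPM in controls (median 15.9) and from 7.31 to 14.6 CPM in iKO (median 10.9). Col8a2 ran from 6.90 to 20.7 CPM in controls (median 17.4) and from 5.19 to 12.9 CPM in iKO (median 7.13). All 6 iKO values of both genes lay below the control median and 3 below the lowest control. For Col8a2 control 4 (6.90 CPM) was the 1 control inside the iKO range, and for Col8a1 controls 3, 4 and 5 (14.3, 10.4 and 10.7 CPM) lay inside it. The log2 fold changes were -0.57 ± 0.155 for Col8a1 (SE; edgeR adjusted p = 0.153) and -0.93 ± 0.290 for Col8a2 (SE; edgeR adjusted p = 0.234). Col8a2 in iKO stood at 53.1% of its mean control level, the lowest share of any collagen gene tested. The differences were of like size in the sets, -0.64 and -0.54 for Col8a1 and -0.98 and -0.99 for Col8a2 in replicates 1 to 4 and replicates 5 and 6.

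Col7a1, the anchoring fibril collagen under epithelia, ran from 13.2 to 17.3 CPM in controls (median 14.8) and from 9.79 to 14.7 CPM in iKO (median 12.6). All 6 iKO values lay below the control median and 4 below the lowest control. The log2 fold change was -0.23 ± 0.0930 (SE; edgeR adjusted p = 0.394). All 4 tested genes of types VII, VIII and X had negative log2 fold changes, with a median of -0.40.

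The fibril-associated (FACIT) collagens, which sit on the surface of fibrils, were divided, with 4 of 8 tested log2 fold changes above 0 and a median of -0.09. Col16a1 ran from 63.7 to 83.6 CPM in controls (median 73.3) and from 45.1 to 73.1 CPM in iKO (median 61.2). All 6 iKO values lay below the control median and 4 below the lowest control, with a log2 difference of -0.25 ± 0.0994 (SE; edgeR adjusted p = 0.373). Col12a1, a tendon and ligament collagen, had a log2 fold change of -0.42 and Col14a1, found beside it on fibrils, one of 0.17 (edgeR adjusted p = 0.539 and 0.528). Of the type IX chains, Col9a2 ran from 13.4 to 23.1 CPM and Col9a3 from 2.10 to 9.15 CPM over the 12 libraries, with log2 fold changes of -0.21 and -0.25 (edgeR adjusted p = 0.533 and 0.844). Col9a3 overlaps Tcfl5, and without strand its value is uncertain. Col19a1 and Col20a1 were at 1.73 to 3.93 CPM, with log2 fold changes of 0.21 and 0.14 (edgeR adjusted p = 0.693 and 0.859), and Col22a1 had one of 0.03 (adjusted p = 0.989).

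Among the transmembrane collagens, Col23a1 was the 1 collagen gene with an unadjusted p under 0.05 that was higher in iKO. It was singled out after its values were seen, at 44.2 to 54.1 CPM in controls (median 46.5) and 47.9 to 56.1 CPM in iKO (median 53.0). Its values differed little between libraries, and the log2 fold change was 0.14 ± 0.0587 (SE; edgeR adjusted p = 0.419). Col25a1, a neuronal membrane collagen needed in mice for motor nerves to reach muscle, had a log2 fold change of -0.20 and Col13a1, a collagen of the neuromuscular junction, one of -0.41 (edgeR adjusted p = 0.673 and 0.709).

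Col17a1, the collagen of epidermal hemidesmosomes, was at 0.120 to 0.556 CPM in 11 libraries and at 5.91 CPM in iKO 6, a value also singled out after it was seen. The 8 skin epithelium markers, all of them read in at least 1 library, summed to 139 CPM in iKO 6 and to 7.01 to 24.6 CPM in the other libraries. Their part in the Col17a1 value was not tested.

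The multiplexins Col15a1 and Col18a1, basement membrane collagens of vessels, nerves and muscle, ran from 39.0 to 66.0 CPM and from 13.8 to 18.6 CPM over the 12 libraries, with log2 fold changes of 0.05 and -0.10 (edgeR adjusted p = 0.903 and 0.711). The locus of Col18a1 overlaps Slc19a1, so its value is uncertain without strand. Col28a1 ran from 71.4 to 93.4 CPM in controls (median 82.1) and from 81.6 to 98.5 CPM in iKO (median 89.0). The groups overlapped, and the log2 fold change was 0.09 ± 0.0508 (SE; edgeR adjusted p = 0.548). Col26a1 ran from 5.46 to 8.96 CPM, with a log2 difference of 0.03 (edgeR adjusted p = 0.960).

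The sexes were compared in the same fit, over 5 female and 7 male libraries. None of the 41 collagen genes passed (0.108% of all genes), and 4 had an unadjusted p under 0.05 (9.76% against 10.2% of all genes). Col8a1 measured 14.6 ± 3.74 CPM in females and 11.4 ± 3.59 CPM in males (mean ± SD), Col28a1 91.3 ± 6.04 and 80.9 ± 5.10 CPM, and Col14a1 38.4 ± 4.49 and 32.0 ± 4.34 CPM. Their log2 fold changes of male against female were -0.45, -0.16 and -0.24 (edgeR adjusted p = 0.443 for each). Col6a4 measured 0.5001 ± 0.172 CPM in females and 0.779 ± 0.257 CPM in males (log2 fold change 0.67, edgeR adjusted p = 0.464).

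Chains that enter 1 trimer or 1 fibril were compared over the libraries as log2(CPM + 1), in 12 of 14 listed pairs, those whose chains were both tested. Of these, 7 correlated with a Benjamini-Hochberg adjusted p under 0.05 over the 12 pairs in a two-sided permutation test. The share of all gene pairs that would pass was not computed. Col1a1 and Col1a2 were closest, with Pearson's r = 0.991 and Spearman's rho = 0.923 over 12 libraries (permutation p = 1e-05, the smallest that 100000 resamples can give, adjusted p = 6e-05). Each was the other's nearest gene by r among all 16636 other genes tested, and r was 0.950 without the 2 libraries farthest from the median, which are control 6 and iKO 5. Within replicates 1 to 4, r was 0.922 over 8 libraries.

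Col6a1 and Col6a2 followed each other with r = 0.968 and rho = 0.965 (permutation p = 1e-05, adjusted p = 6e-05), with r = 0.953 without the 2 farthest libraries and r = 0.952 within replicates 1 to 4. Col6a2 ranked 2 among all genes by r with Col6a1, and Col6a1 ranked 1 with Col6a2. Col4a1 and Col4a2 had r = 0.878 and rho = 0.867 (permutation p = 0.00017, adjusted p = 0.00068), and r = 0.837 without the 2 farthest libraries. Reads that the overlapping ends of the 2 genes share would enter both counts or neither, and the part of this in r was not tested. Col5a1 and Col5a2 had r = 0.864 and rho = 0.944 (permutation p = 0.00025, adjusted p = 0.00075), and r = 0.778 without the 2 farthest libraries. Among all genes by r, Col5a2 ranked 2 with Col5a1, and Col5a1 ranked 4 with Col5a2. Col4a2 ranked 5 with Col4a1, and Col4a1 ranked 22 with Col4a2.

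Col8a1 and Col8a2 had r = 0.803 and rho = 0.783 (permutation p = 0.0025, adjusted p = 0.006), with r = 0.808 without the 2 farthest libraries. Col4a3 and Col4a4 had r = 0.732 and rho = 0.699 (permutation p = 0.00695, adjusted p = 0.0139), and Col4a5 and Col4a6 r = 0.712 and rho = 0.790 (permutation p = 0.00912, adjusted p = 0.0156). Without the 2 farthest libraries these were 0.645 and 0.643. As deviations from the group means, r of these type IV pairs was 0.568 and 0.600 and neither passed on r (permutation adjusted p = 0.0940 and 0.0735). For Col8a1 with Col8a2 such deviations gave r = 0.682, which passed (permutation adjusted p = 0.0372), and rho = 0.643, which did not (adjusted p = 0.0556). Among all genes by r, Col8a2 ranked 111 with Col8a1, and Col8a1 ranked 260 with Col8a2. Col4a4 ranked 182 with Col4a3 and Col4a3 65 with Col4a4, and Col4a6 ranked 832 with Col4a5 and Col4a5 468 with Col4a6. Many other genes thus had a higher r with each of these chains than its partner had.

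**Figure D5:**
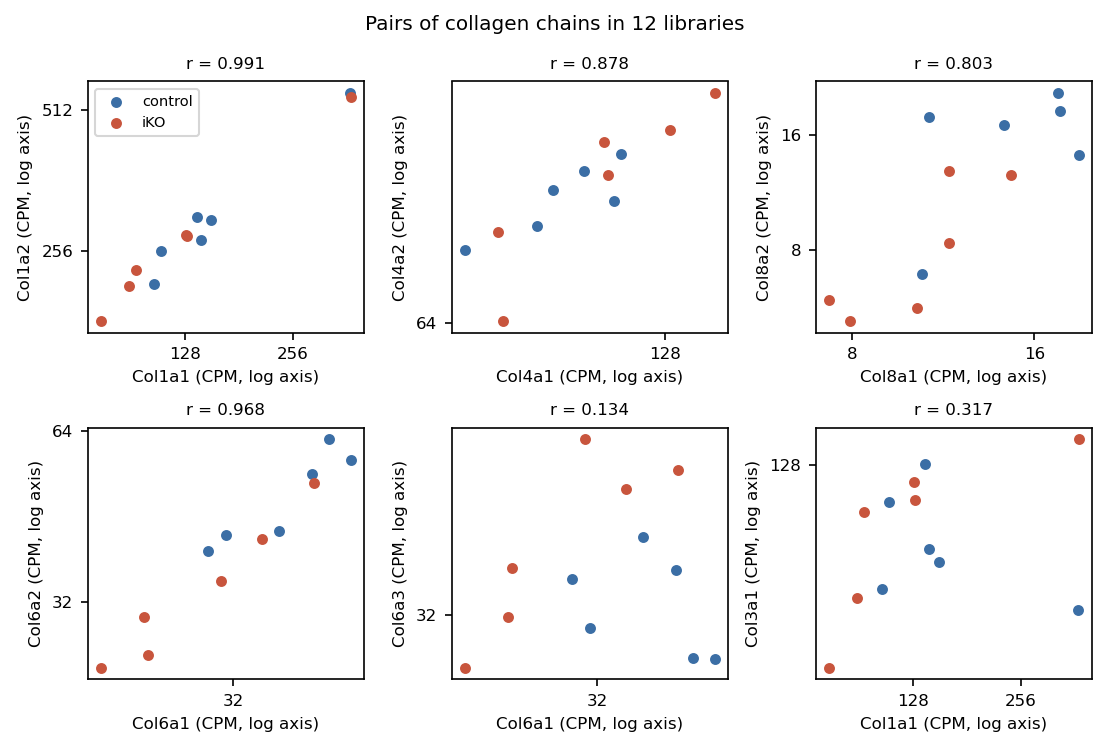
Levels of 6 pairs of collagen chains in the 12 libraries, in CPM on log axes, controls in blue and iKO in red, with Pearson's r of log2(CPM + 1) above each panel. Col1a1 with Col1a2 (0.991) and Col6a1 with Col6a2 (0.968) lie along a line, while Col6a1 with Col6a3 (0.134) and Col1a1 with Col3a1 (0.317) are scattered.

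The other 5 pairs did not pass. Col6a3, the third chain of type VI collagen, had r = 0.134 and rho = 0.0559 with Col6a1 (permutation adjusted p = 0.739) and r = 0.002 and rho = -0.0699 with Col6a2 (adjusted p = 0.995). Within the iKO libraries r was 0.865 and 0.776, and within the controls it was -0.415 and -0.607, over 6 libraries each. As deviations from the group means, r was 0.496 and 0.403, and neither passed (permutation adjusted p = 0.135 and 0.210). The difference between the groups in these correlations was not tested. Col1a1 and Col3a1 had r = 0.317 and rho = 0.406 (permutation adjusted p = 0.404), with r = 0.691 (permutation adjusted p = 0.0331) without control 6, which is high for Col1a1 and low for Col3a1, and r = 0.641 (adjusted p = 0.0685) without control 6 and iKO 5. Col9a2 with Col9a3 and Col11a1 with Col11a2 had r = 0.452 and 0.304 and rho = 0.517 and 0.210 (permutation adjusted p = 0.214 and 0.404). Without the 2 libraries farthest from the median of Col11a1, r of Col11a1 with Col11a2 was 0.755, and without control 6 and iKO 5 it was -0.21.

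Ratios of the paired chains were then compared between the groups, a test added after their values were seen. On the log2(CPM + 1) scale, Col6a2 exceeded Col6a3 by 0.567 ± 0.360 in controls (mean ± SD, n = 6) and was below it by a mean of -0.124 ± 0.266 in iKO. The difference was -0.69, 5 of 6 iKO libraries lay below the lowest control, and it was -0.57 in replicates 1 to 4 and -0.93 in replicates 5 and 6. The exact two-sided permutation p over all assignments of the libraries was 0.00649, and 0.0779 adjusted over the 12 pairs. Col6a1 against Col6a3 gave a difference of -0.65, with an exact permutation p = 0.0152 and an adjusted p = 0.0909. For the other 10 pairs the exact permutation p ran from 0.117 upward, so no ratio passed after adjustment.

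The genes that make, finish, hold and break down collagen were read from lists, beside the shares of all genes. Of all genes 0.379% were called, and at an unadjusted p under 0.05, 6% were lower and 4.9% higher. None of 21 genes of chain synthesis and folding passed (median log2 fold change 0.03), and none had an unadjusted p under 0.05. Ppib, a prolyl isomerase, and Plod2, a lysyl hydroxylase, had the smallest p-values, with log2 fold changes of 0.11 and 0.17 (edgeR adjusted p = 0.496 and 0.551). Of 15 genes of procollagen processing and crosslinking, 1 passed. Pcolce2, an enhancer of the protease that trims procollagen ends, rose from 34.4 to 40.7 CPM in controls (median 37.5) to 44.0 to 53.3 CPM in iKO (median 48.2), with no overlap between the groups. Its log2 fold change was 0.38 ± 0.0620 (SE; edgeR adjusted p = 0.0191), and it did not pass without control 1, control 3, control 5, iKO 1 or iKO 5 (adjusted p = 0.0573 to 0.0687), or in tamoxifen-injected animals alone (0.0759).

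Of 17 tested partners of collagen fibrils none passed, with a median log2 fold change of -0.31. At an unadjusted p under 0.05, 9 were lower and 1 higher (6% and 4.9% of all genes were). Decorin (Dcn), a proteoglycan that coats fibrils, had a log2 difference of -0.28 (edgeR adjusted p = 0.0823) and fibromodulin (Fmod), a related proteoglycan, one of -0.98 (adjusted p = 0.101). None of 17 basement membrane partners passed, with 2 higher and 1 lower at an unadjusted p under 0.05. The laminin chain Lama1 ran from 5.52 to 7.28 CPM in controls and from 3.75 to 5.39 CPM in iKO, with no overlap (log2 fold change -0.57, edgeR adjusted p = 0.0586), and Lama4 had a log2 fold change of 0.13 (adjusted p = 0.313). Of 9 tested collagen receptors none passed, and 3 were lower at an unadjusted p under 0.05. The integrin chain Itga11 (-0.56) and the discoidin receptor Ddr2 (-0.42) had the smallest p-values (edgeR adjusted p = 0.0997 and 0.172). None of 15 tested genes of collagen breakdown passed or had an unadjusted p under 0.05, with Mmp14 at -0.24 and Timp4 at -0.51 (edgeR adjusted p = 0.4997 and 0.532). None of 18 genes of TGF-beta signalling and fibrosis passed, and 1 was lower at an unadjusted p under 0.05, Tgfb3 at -0.19 (edgeR adjusted p = 0.267), followed by Ltbp4 at -0.28 (adjusted p = 0.567). DESeq2 called 24 genes over all the lists where edgeR called 6.

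Markers of the meninges, the membranes that continue over the root of the ganglion, were lower in iKO. All 14 were read, and 3 fell past the threshold (0.204% of all genes were called lower). All 14 had negative log2 fold changes (median -0.82) and an unadjusted p under 0.05 (6% of all genes were lower with such a p). Their summed level ran from 870.5 to 2033 CPM in controls (median 1701) and from 525.5 to 972 CPM in iKO (median 856). Control 4 alone among the controls lay inside the iKO range. It was also the lowest control for 4 of the 8 lower collagen genes, Col8a1, Col8a2, Col6a1 and Col6a2. For the other 4 it was not: control 6 was lowest for Col4a3 and Col4a4, control 1 was lowest for Col16a1 and Col7a1, and control 4 was the highest control for Col7a1 (17.3 CPM). Slc22a8 and Slc22a6, which encode transporters of organic anions, and Slc13a4, which encodes one of sulfate, had log2 fold changes of -1.12, -1.10 and -0.95 (edgeR adjusted p = 0.0440, 0.0476 and 0.0191). Each lost its call in tamoxifen-injected animals alone (adjusted p = 0.0953, 0.146 and 0.0538). With 1 library left out, Slc13a4 did not pass without control 1, control 2 or iKO 1, Slc22a8 passed only without control 4 or control 6, and Slc22a6 only without control 4. The list was lower in both sets, with medians of -0.72 in replicates 1 to 4 and -1.11 in replicates 5 and 6. The part of these markers in the collagen values was not tested.

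Other cell types showed fewer calls. At an unadjusted p under 0.05, 6% of all genes were lower and 4.9% higher. Among 12 Schwann cell markers Pmp22, a myelin gene, rose (log2 fold change 0.36, edgeR adjusted p = 0.0180), with an adjusted p of 0.0827, 0.0545 and 0.0578 without control 2, iKO 1 and iKO 5. Of the 12, 5 were higher at an unadjusted p under 0.05 and none lower. Their log2 fold changes had a median of 0.13 and a lowest value of -0.62. None of 12 fibroblast markers passed, with a median of -0.14 and 4 lower at an unadjusted p under 0.05, nor did any of the perineurial (8), endothelial (10), mural (10), satellite glia (10) or macrophage (10) markers, whose medians lay between -0.26 and 0.02. All 10 macrophage markers had log2 fold changes below 0, 2 of them with an unadjusted p under 0.05, as had 9 of 10 endothelial markers, 1 of them with such a p. With such a p, 2 perineurial, 2 mural and 1 satellite glia markers were lower and 1 mural marker was higher. None of the 5 tested tendon markers passed either (median 0.17). All 12 skeletal muscle markers were above 0 (median 1.22), none called and 3 at an unadjusted p under 0.05. In replicates 5 and 6 all 12 were above 0, 8 with such a p (3.8% of all genes), and in replicates 1 to 4 only 6 were. Of 5 tested skin epithelium markers 4 were above 0 (median 0.66), none called. Of 10 tested cartilage and bone markers 5 were (median -0.04), none called. Central glia markers were spread widely, from a sum of 137 to 2492 CPM in controls and from 143 to 856 CPM in iKO. All 10 were below 0, with a median of -1.10, none called and 2 at an unadjusted p under 0.05. Pituitary markers summed to 11.2 to 2808 CPM, highest in iKO 3, and none of 6 tested passed. Their part in the collagen values was not tested.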

How the data were processed

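Whole trigeminal ganglia of 12 mice were measured by non-stranded polyA RNA-seq, per the labels' protocols. The authors deposited raw read counts per gene. bcl2fastq 2.20.0.422, STAR 2.7.8a, featureCounts 2.0.1 and the build GRCm39 are named in the submitters' processing notes, and the annotation release is not given in the sources used here. Without strand, reads of overlapping genes on opposite strands cannot be told apart. On either strand, 28 collagen genes overlap another annotated gene, and 5 overlap another protein-coding gene. Col4a3, among the collagen genes lower in iKO at an unadjusted p under 0.05, overlaps the noncoding C430014B12Rik on the opposite strand. Of 55416 identifiers, 52083 had a symbol, and the other 3333 held 0.274% of the counts. Exon lengths, the union of all exons of a gene, came from GENCODE on GRCm38, and start windows from RefSeq.

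Genes were filtered with edgeR's default and tested with edgeR 4.0.16 in R 4.3.3 (TMM scaling, quasi-likelihood F test, Benjamini-Hochberg adjustment over all genes tested, threshold 0.05), with group and sex as terms. CPM values use TMM-scaled library sizes. The replicate sets were tested as separate contrasts, with their difference. The code was tested on simulated data with 200 changed genes: for iKO against control over all libraries, on 16515 genes, 79% of log2 changes of 1 and 50% of those of 0.5 were called. Chain pairs were tested by permutation of log2(CPM + 1) and ratios by exact permutation, in scipy 1.17.1. No pair of libraries of a group was alike within sampling noise.

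The members and lists were chosen with earlier results of these data known. Library values are given for the 8 genes with the smallest p, the 8 with the highest mean CPM and their chain partners, and other genes by range. Alternatives were RLE scaling, other filters on low counts, DESeq2 1.42.0, no covariate, a replicate block, tamoxifen-injected animals only, another pseudocount and leaving out libraries. One gene called in the other lists is not reported here.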

Additional observations from a re-analysis of the deposited data

Results flagged for a closer look

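For each collagen gene, each group of 6 libraries was searched for 1 library far from the other 5. Chance gives about 1 in 20 such groups if values are normally distributed and groups independent. Correlated genes such as Col1a1 and Col1a2 shared the far library, so this rate cannot be used to judge the count. The share of such groups among all genes was not computed. In 13 of 88 groups, 1 library lay far from the other 5. Control 6 was that library for 5 genes: Col1a1 (371 CPM, the other controls at 105 to 151), Col1a2 (556 CPM, others 218 to 303), Col11a2 (57.1 CPM, others 12.4 to 26.8), Col22a1 (6.69 CPM, others 1.38 to 2.31) and Col9a1 (1.79 CPM, others 0.240 to 0.701). iKO 5 was that library for 4: Col1a1 (375 CPM, the other iKO libraries at 73.9 to 129), Col1a2 (544 CPM, others 182 to 277), Col22a1 (5.87 CPM, others 1.59 to 2.37) and Col10a1 (2.79 CPM, others 0.513 to 1.06). iKO 6 stood apart for Col17a1 (5.91 CPM, others 0.128 to 0.445).

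The other 3 were single genes. Col19a1 was high in iKO 1 (3.43 CPM, others 2.95 to 3.13), Col5a3 was low in iKO 2 (92.1 CPM, others 128 to 142), and Col6a4 was high in control 4 (1.08 CPM, others 0.413 to 0.602).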

How the results depend on the processing

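The alternative without control 6 and iKO 5 together was chosen after seeing the data. The count of 0 collagen genes called held in every comparison under each alternative run, except with DESeq2 over all libraries (1, Col8a1) and with no filter on low counts, which gave 6 in replicates 1 to 4, 5 in replicates 5 and 6, and 1 (Col17a1) for their difference. With no filter, calls over all 36539 genes were 621 in replicates 1 to 4 and 1014 in replicates 5 and 6, against 19 and 1 of 16637 with it. The 6 calls in the other lists became 14 with no filter, 24 with DESeq2, 2 in tamoxifen-injected animals only, and 1 to 10 with 1 library left out. Calls over all genes moved as well. The 63 of 16637 became 138 of 36539 with no filter, 332 of 16637 with DESeq2 and 28 of 16931 in tamoxifen-injected animals only. With 1 library left out they ran from 23 to 88. The cause was not tested. The 7 correlating pairs ran from 5 to 8 with 1 library left out.

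The replicate numbers did not pair the samples (r of same-numbered libraries from -0.396 to 0.350). With a replicate block in place of sex, 0 collagen genes, 3 list genes and 34 of all genes (63 without the block) were called, and 3 collagen genes were higher and 10 lower at an unadjusted p under 0.05 (24.4% lower, against 6.29% of all genes).

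The log2 fold changes of the 8 lower genes kept their sign with each library left out, from -0.70 to -0.48 for Col8a1 and from -1.21 to -0.80 for Col8a2. These genes were chosen by a small p in the same data, so a kept sign was nearly fixed in advance and is no support. Those of the fibril chains given next, each smaller than its standard error, turned. In tamoxifen-injected animals Col1a1 was at 0.11 and Col1a2 at 0.075, and with 1 library left out they ran from -0.74 to 0.20 and from -0.45 to 0.10. Without control 6 and iKO 5 together Col3a1 was at -0.15, Col5a1 at -0.090, Col5a2 at -0.026 and Col5a3 at -0.021, and with 1 library left out they ran from -0.13 to 0.13, -0.086 to 0.17, -0.033 to 0.11 and -0.0043 to 0.0999. The r of Col6a2 with Col6a3 was -0.0141 under RLE scaling and ran from -0.249 to 0.185 with 1 library left out, that of Col6a1 with Col6a3 ran from -0.098 to 0.335, and that of Col11a1 with Col11a2 was -0.207 without control 6 and iKO 5. Depth limits Col6a4, Col6a6, Col9a1 and Col17a1, which have few reads.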
